A study of Mus musculus with 7 samples.

Results

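The centromere and kinetochore structural genes described here were chosen by name, as 10 genes that code for parts of the complex that joins a chromosome to the spindle. Earlier results of these data were known when they were chosen. They were Cenpa, Cenph, Cenpi, Cenpk, Casc5 (Knl1 in RefSeq), Ndc80, Nuf2, Spc25, Cenpe and Cenpf. All 10 were among the 15531 genes tested in the RNA-seq of primary mouse embryonic fibroblasts (MEFs), which are cells grown out from the bodies of mouse embryos.

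MEFs of 2 genotypes were compared. Df/+Bl6 cells carried a chromosome 4 from the 129S5/SvEvBrd strain with a 4.3 Mb deletion in band E2 (Df), together with an intact C57BL/6J homologue. +129/+Bl6 cells, the controls, had the same hybrid background with both homologues intact. There were 4 Df/+Bl6 lines and 3 +129/+Bl6 lines, each an independent primary line from an embryo dissected at embryonic day 13.5. The Df chromosome came from 1 engineered ES cell line, passed on by Df/Dp male chimeras mated to C57BL/6J. The labels give this mating for all 7 lines, whereas the methods name F1 matings of the intact strains for the controls. RNA was taken at passage 4, 10 hours after the plates had become confluent. The labels give neither litter, sex nor batch, so differences of that kind, and of the mating, cannot be told apart from genotype, and the deletion was present in every cell of the Df/+Bl6 lines rather than in a chosen cell type.

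The centromere is the site on each chromosome at which the kinetochore is built, and it is marked by nucleosomes that hold the histone H3 variant CENP-A. A set of inner proteins, the constitutive centromere-associated network (CCAN), sits on this chromatin through the cell cycle. In mitosis it recruits an outer layer, made of KNL1 and the MIS12 and NDC80 complexes, that binds microtubules. A fibrous corona with the motor CENP-E and the large coiled-coil protein CENP-F forms outside it. Many of these genes are transcribed mainly in G2 and M phase.

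The values were the authors' mean normalized counts for each genotype, obtained with DESeq size factors. A combined table holds the reads of both alleles together, and 2 others hold the reads that could be assigned to the 129S5 or to the C57BL/6J allele. Each table lists only the genes past the authors' FDR of 0.05, and "rose", "fell" and "listed" are used here in that sense. No value per MEF line could be used, so the means have no SD and no standard error, the overlap between lines is unknown, and the depth of each library is unknown. A gene that was not listed has no value, which does not show that its expression was equal in the 2 genotypes.

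The promoters of 4 members are shown to let the motifs described later be read in place. Spc25 had the smallest change of all members and Cenpf the largest, Cenpa codes for the centromeric histone, and Cenpe, with a change close to that of Cenpf, lacks the motif that the other 3 carry at the start site. They are RefSeq sequences of GRCm38.p6, the assembly of the authors' alignment, from 150 bases before the transcription start to 30 bases from it, written 5′ to 3′ on the strand of the gene. Capitals mark TTTGAA, the core of the cell cycle genes homology region (CHR), and CCAAT or its reverse complement.
Cenpa, chr5:30666736-30666915, plus strand: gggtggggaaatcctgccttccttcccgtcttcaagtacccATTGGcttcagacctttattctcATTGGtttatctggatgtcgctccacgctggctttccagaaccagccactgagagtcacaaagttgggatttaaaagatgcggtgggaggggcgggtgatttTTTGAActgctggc
Cenpe, chr3:135212413-135212592, plus strand: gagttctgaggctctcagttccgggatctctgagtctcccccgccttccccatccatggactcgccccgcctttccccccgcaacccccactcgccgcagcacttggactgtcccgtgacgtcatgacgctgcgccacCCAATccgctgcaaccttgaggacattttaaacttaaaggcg
Cenpf, chr1:189688057-189688236, minus strand: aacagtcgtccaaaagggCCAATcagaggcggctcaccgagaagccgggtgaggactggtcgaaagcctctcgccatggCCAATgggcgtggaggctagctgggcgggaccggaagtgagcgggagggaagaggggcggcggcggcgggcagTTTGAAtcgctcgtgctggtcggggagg
Spc25, chr2:69206184-69206363, minus strand: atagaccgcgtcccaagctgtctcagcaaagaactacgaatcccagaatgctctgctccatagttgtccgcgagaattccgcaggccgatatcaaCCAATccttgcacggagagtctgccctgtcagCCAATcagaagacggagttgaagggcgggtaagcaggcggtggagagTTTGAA

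All 10 members rose in the Df/+Bl6 MEFs in the combined comparison, and none fell. Among all genes tested, 8.67% were listed in either direction and 5.13% were listed as higher in Df/+Bl6. The members were chosen with earlier results of these data known, so these shares do not measure how unusual their count is. The median ratio of the members was 2.42-fold, or 1.27 on the log2 scale, with an SD of 0.37 between genes. The smallest ratio was that of Spc25, 1.75-fold, and the largest that of Cenpf, 3.75-fold. At least a doubling (log2 ratio of 1) was seen in 9 of the 10. Relative to the median of all listed genes, a log2 ratio of 0.61, only 3 of the 10 reached 1. They were Cenpf (1.30), Casc5 (1.26) and Cenpe (1.22), while Cenpa stood at 0.48 and Spc25 at 0.20. That median lies above 0 because more listed genes rose (796) than fell (550), and it leaves out the genes that were not listed. Over all 796 genes listed as higher the median log2 ratio was 0.80, and 225 of them reached 1. Of these 796 genes, 87.4% had a smaller ratio than the median of the members, and 4 members were among the 50 with the highest ratio. The means of the 10 members added up to 36089 normalized counts in Df/+Bl6 and 12476 in +129/+Bl6, a 2.89-fold difference to which the abundant Cenpe and Cenpf gave the most. In these bulk samples, a larger share of cycling cells and more RNA of these genes per cell cannot be told apart.

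**Figure D1:**
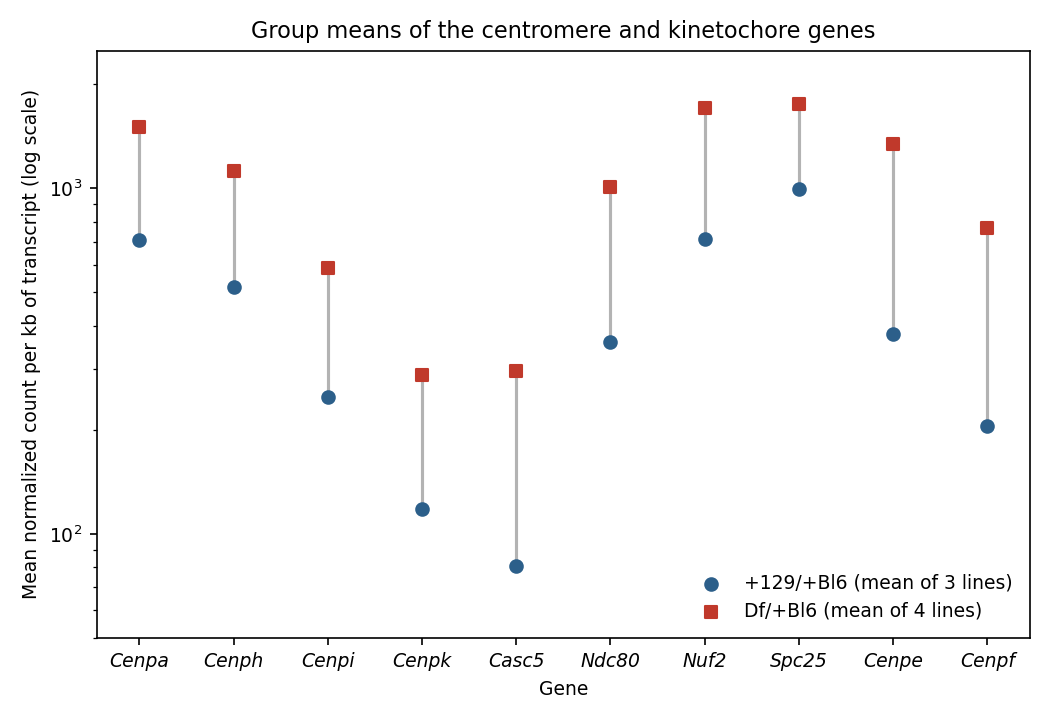
Mean normalized count per kb of transcript (log axis) of each member, with 1 point for the mean of the 3 +129/+Bl6 lines (blue circles) and 1 for the mean of the 4 Df/+Bl6 lines (red squares). The Df/+Bl6 mean lies above the +129/+Bl6 mean for all 10 genes, and the gap is narrowest for Spc25; no error bars can be drawn, since values of single lines were not used.

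The centromeric histone itself was among the members that changed least. Cenpa, which codes for CENP-A, lies on chromosome 5 (GRCm38 chr5:30666877-30674837). The authors' means were 2042 normalized counts in Df/+Bl6 and 962 in +129/+Bl6, a log2 ratio of 1.09. It stood at place 175 of the 796 genes listed as higher, ordered by ratio.

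The 3 CCAN members code for subunits of 1 assembly, CENP-H/I/K/M, which lies next to the CENP-A nucleosome and is needed for kinetochore assembly. The gene of its CENP-M subunit, Cenpm, is not a member. It was tested but not listed, so it has no ratio here. Cenph (chr13:100759674-100775903) had means of 1401 in Df/+Bl6 and 647 in +129/+Bl6, and a log2 ratio of 1.11. Cenpi, on the X chromosome (chrX:134308084-134363104), had means of 1891 and 803, and a log2 ratio of 1.24. Cenpk (chr13:104228611-104249622) was the least abundant member by mean normalized count, with 376 and 154, and its log2 ratio was 1.29. The 3 ratios therefore lay within 0.2 of each other on the log2 scale although the levels did not: per kb of transcript, the highest mean of the 3 was 3.89 times the lowest in Df/+Bl6 and 4.40 times in +129/+Bl6. Without values of the lines, it was not tested whether these 3 ratios differ.

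Casc5 was the member with the lowest +129/+Bl6 level per kb of transcript and with one of the largest changes. It codes for KNL1, the scaffold of the outer kinetochore that docks the checkpoint proteins BUB1 and BUBR1. The gene lies at chr2:119047119-119110497, and its means were 2308 in Df/+Bl6 and 631 in +129/+Bl6. Its log2 ratio of 1.87, a 3.66-fold rise, was at place 6 of the 796 genes listed as higher.

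The NDC80 complex, a rod that makes the main contact with microtubules, had subunit genes with log2 ratios from 0.81 to 1.49. Ndc80 (chr17:71496100-71526857), which codes for its microtubule-binding HEC1 subunit, had means of 2214 in Df/+Bl6 and 788 in +129/+Bl6, with a log2 ratio of 1.49. Nuf2 (chr1:169497934-169531464), its partner at the same end of the rod, had means of 4104 and 1719, and a log2 ratio of 1.26. Spc25 (chr2:69193895-69206213), at the end that faces the inner kinetochore, had means of 2671 and 1523, and a log2 ratio of 0.81. The 2 subunits at the microtubule end thus had larger ratios than Spc25. The same was so against Spc24, the partner of Spc25 and not a member, which had means of 1161 and 618 and a log2 ratio of 0.91. Per kb of transcript, Spc25 was highest of the 4 subunits in both genotypes and was followed by Nuf2, while Ndc80 (1006 in Df/+Bl6, 358 in +129/+Bl6) and Spc24 (861 and 458) changed places. The span from the highest to the lowest of the 4 was 2.03-fold in Df/+Bl6 and 2.79-fold in +129/+Bl6. The differences between the subunits were not tested, for want of values per line.

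The 2 corona members, together with Casc5, had the largest ratios of the 10. Cenpe (chr3:135212563-135273540) codes for the kinesin that carries chromosomes to the spindle equator. Its means, 10516 in Df/+Bl6 and 2965 in +129/+Bl6, were the highest of all members and gave a log2 ratio of 1.83, place 7 of 796. Cenpf (chr1:189640606-189688107), whose protein moves from the nuclear matrix to the kinetochore in G2 and M phase, had means of 8564 and 2283, a log2 ratio of 1.91 and place 5.

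Per kb of transcript the members spanned 288 to 1749 normalized counts in Df/+Bl6 and 80.9 to 998 in +129/+Bl6. The ratio of the highest to the lowest member was thus 6.07 in Df/+Bl6 and 12.3 in +129/+Bl6. In the plot of group means per kb, Spc25, Nuf2, Cenpa and Cenpe led in Df/+Bl6, at 1749, 1706, 1508 and 1346. In +129/+Bl6 the first places went to Spc25 at 998, Nuf2 at 715 and Cenpa at 710, followed by Cenph at 518, with Cenpe behind it at 380. Cenpk and Casc5 were the lowest in both, Casc5 last in +129/+Bl6 and Cenpk last in Df/+Bl6. Nuf2 and Cenpa in +129/+Bl6, and Cenpk and Casc5 (288 and 296) in Df/+Bl6, lay close together, and without an error their order is not established.

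The largest ratios belonged to members with long transcripts. Cenpf, Casc5 and Cenpe have transcripts of 11137, 7800 and 7813 bases, while the other 7 lie between 1251 and 3227 bases. Over the 10 members, Spearman's rho between ratio and transcript length was 0.72, given as a description of genes measured in the same libraries. Over the 764 genes listed as higher that had a length, it was -0.09, over the 1300 listed in either direction it was 0.21, and over the members and the other listed centromere and kinetochore genes, 30 in all, it was 0.23. When the genes listed as higher were split by length into 4 bins of 191, from the shortest to the longest transcripts, the median log2 ratios were 0.84, 0.82, 0.78 and 0.77. The part of transcript length in the order of the members was not tested.

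The members are scattered over 7 chromosomes, and none lies on chromosome 4, which carries the deletion. In the GENCODE annotation of NCBI37/mm9, 2 of them overlap another gene: Cenph shares 309 bases with a pseudogene on the opposite strand, and Ndc80 shares 108 bases with a 5S rRNA model on its own strand. Neither of those was among the genes tested. The libraries were stranded, but the counting of strand is not given in the sources used here.

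The allele-specific comparisons asked whether the rise came from one parental copy. Reads without a strain difference cannot be assigned to an allele, so these tables rest on fewer reads and on other means, which are not compared here with those of the combined table. Listed as higher for the 129S5 allele were 6 members, against 14.7% of the genes that rose in the combined comparison. For the C57BL/6J allele 5 members were listed as higher, against 20.0% of the same genes. Both alleles were listed for Cenpe, Cenpf, Nuf2 and Casc5, and neither for Cenph, Cenpi and Ndc80. Which genes could be tested for each allele is not listed, so a missing call does not show that the allele was tested.

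Casc5 had nearly the same ratio in all 3 tables. Its means were 544 in Df/+Bl6 and 149 in +129/+Bl6 for the 129S5 allele, a log2 ratio of 1.87. For the C57BL/6J allele they were 780 and 204, a log2 ratio of 1.93. The motor gene Cenpe was also alike on both copies, with means of 2335 and 726 (log2 ratio 1.68) for the 129S5 allele and of 3574 and 1043 (1.78) for the C57BL/6J allele. Nuf2 had means of 908 and 418 (1.12) for the 129S5 allele and of 1843 and 754 (1.29) for the C57BL/6J allele. Among the 4 genes listed for both, the log2 ratio was larger for the C57BL/6J allele in 3 and larger for the 129S5 allele in 1, Cenpf.

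Cenpf had few reads on either allele, and its allelic ratios are the least certain. Its means were 69.2 in Df/+Bl6 and 16.7 in +129/+Bl6 for the 129S5 allele, and 82.2 and 27.3 for the C57BL/6J allele. The log2 ratios were 2.05 and 1.59, and their difference of 0.46 was the widest of the 4 genes, against -0.06 for Casc5, -0.09 for Cenpe and -0.17 for Nuf2. None of these differences could be tested.

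Cenpk and Spc25 were listed for the 129S5 allele alone, and Cenpa for the C57BL/6J allele alone. Cenpk had means of 84.7 and 27.8, a log2 ratio of 1.61, which was 0.32 above its combined ratio. Spc25 had means of 555 and 262, a log2 ratio of 1.08, which was 0.27 above its combined ratio. Cenpa had means of 112 and 54.5, a log2 ratio of 1.03, close to its combined 1.09. A call for only 1 allele does not show that the alleles differ. All 3 tables come from the same 7 lines, so the calls in one are not independent of those in another.

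**Figure D2:**
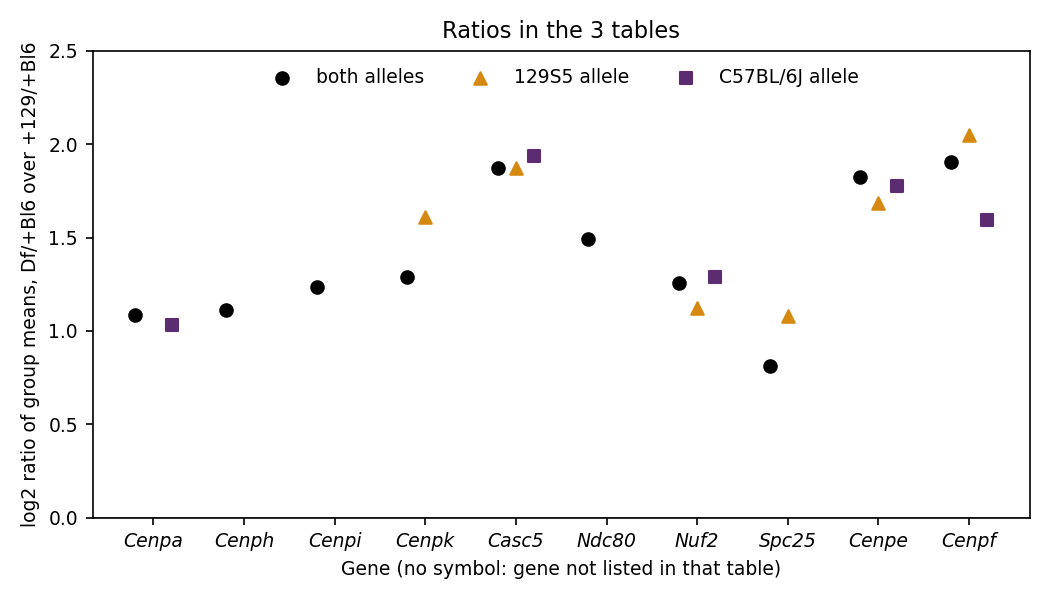
Log2 ratio of the group means, Df/+Bl6 over +129/+Bl6, for each member in the combined table (black circles), for the 129S5 allele (orange triangles) and for the C57BL/6J allele (purple squares); a missing symbol means that the gene was not listed in that table. Symbols of all 3 kinds lie close together for Casc5, Cenpe and Nuf2, while those of Cenpf are spread from 1.59 to 2.05.

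Beyond the members, 32 further genes of the centromere and kinetochore were examined in 5 lists by role. Of these, 20 rose, which is 62.5% against 5.13% of all genes tested, and none fell, against 3.54%. Like the members, these lists were chosen with earlier results of the data known. The median log2 ratio of the 20 was 1.11, with a range from 0.67 to 1.53, and 13 of them reached 1. Since unlisted genes have no value, these medians hold for the listed genes only.

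The 3 genes of the list for loading new CENP-A onto centromeres all rose. Oip5, which codes for MIS18-beta, had means of 427 in Df/+Bl6 and 212 in +129/+Bl6 and a log2 ratio of 1.01. Hjurp, the chaperone of CENP-A, had one of 0.79, and Mis18a one of 0.71. All 3 ratios were smaller than that of Cenpa, at 1.09, though the differences were not tested.

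The remaining CCAN genes were split. Listed as higher were 6 of 13, namely Cenpp (log2 ratio 1.35), Cenpl (1.17), Cenpq (1.15), Cenpn (1.12), Mlf1ip, which codes for CENP-U (1.00), and Cenpc1, which codes for the CENP-C protein that bridges the CENP-A nucleosome and the outer layer (0.67). The other 7 were not listed, among them the histone-fold genes Cenpt, Cenpw, Apitd1 (CENP-S) and Stra13 (CENP-X). The others were Cenpm, Cenpo and Itgb3bp (CENP-R). CENP-L and CENP-N form a pair in the assembled complex, and their genes had ratios 0.05 apart. This is a single pair, and whether genes of partner proteins change alike was not tested.

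Of 9 further outer kinetochore genes, 7 rose. The SKA complex, which holds on to shortening microtubules, had log2 ratios of 1.53 for Ska1, 1.18 for Ska3 and 0.88 for Ska2. In the MIS12 complex, the link between CCAN and the NDC80 rod, Nsl1 had 1.22, Dsn1 0.74 and Mis12 0.73, while Pmf1 was not listed. Zwint, which codes for the partner of KNL1, was not listed either, although Casc5 was among the genes with the largest ratios.

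The genes that bring dynein to the kinetochore were listed in 3 of 4 cases. Kntc1 (ROD) had a log2 ratio of 1.31, Spdl1 (Spindly) 1.29 and Zwilch 1.21, within 0.1 of each other, and Zw10, which also acts in membrane traffic in interphase, was not listed. Of 3 other centromere genes only Cenpj was listed, with 1.10. Its product is, despite the name, mainly a centriole protein. Cenpb, which codes for a protein bound to satellite DNA, and Cenpv were not listed.

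**Figure D3:**
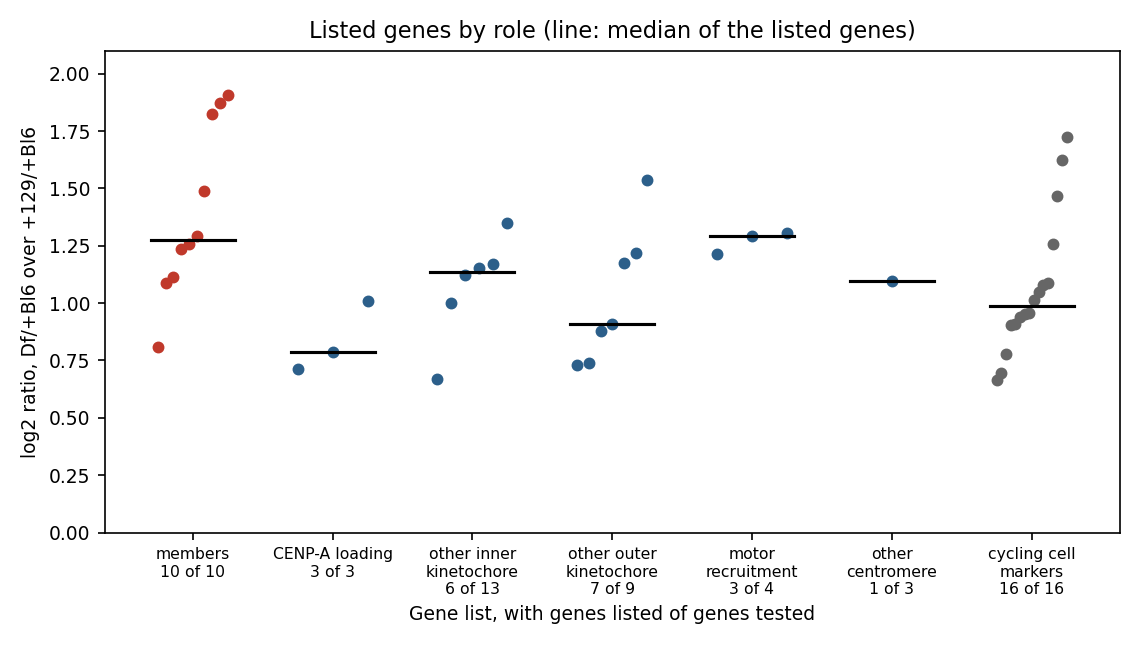
Log2 ratio of each listed gene, Df/+Bl6 over +129/+Bl6 in the combined table, by list: the members in red, the 5 other centromere and kinetochore lists in blue and the markers of cycling cells in grey, with a line at the median of the listed genes and the number listed of those tested under each list. Every point is above 0, and the 3 highest belong to the members Cenpf, Casc5 and Cenpe. Unlisted genes have no value and are not drawn.

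Markers of cycling cells moved together with the members. All 16 on the list rose, against 5.13% of all genes tested, though this list too was chosen with earlier results of the data known. The median log2 ratio of the markers was 0.99. It ranged from 0.67 for the replication clamp gene Pcna to 1.72 for Mki67, the gene of the Ki-67 antigen. A ratio of at least 1 was reached by 8 of them. Of the replication genes on the list, only Mcm6 (1.01) had a ratio within the range of the other cycling markers. The rest, up to Mcm5 at 0.91, lay below Plk1 at 0.94, the lowest of those markers. Bub1 was at 1.62, Top2a at 1.47 and Ccna2 at 1.26, while Aurka, Ccnb1, Cdk1, Foxm1, Ccnb2 and Plk1 lay between 0.94 and 1.09. The replication genes Mcm2, Mcm3, Rrm2, Mcm5 and Mcm6 ran from 0.69 to 1.01. Mki67 had means of 48354 in Df/+Bl6 and 14644 in +129/+Bl6. The 10 members had a median of 1.27 beside the 0.99 of this list. The part of the number of cycling cells in the rise of the members was not tested.

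Among 9 genes of quiescence and cell cycle arrest, 3 were listed. Over all genes tested, 8.67% were listed in either direction and 3.54% were listed as lower. The CDK inhibitor genes Cdkn2b (9814 in Df/+Bl6 and 16891 in +129/+Bl6) and Cdkn1a (10462 and 16690) fell, with log2 ratios of -0.78 and -0.67. Cdkn1b, Cdkn1c and Cdkn2c, which also code for CDK inhibitors, were tested but not listed, as were Rb1, Rbl2 and E2f4. Lin54, which codes for the subunit of the DREAM complex that binds the CHR motif, rose with a log2 ratio of 0.83. The part of these genes in the rise of the members was not tested.

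Markers of cell type were listed about as often as all genes tested, of which 8.67% were. All 10 fibroblast markers were among the genes tested, and of these only Fn1, the gene of fibronectin, was listed, with a log2 ratio of -0.69. Of 10 markers of other cells, 8 were among the genes tested, while Epcam and Alb, which mark epithelium and hepatocytes, were not. The neural crest marker Sox10 was the one listed, at 113 in Df/+Bl6 and 326 in +129/+Bl6, a log2 ratio of -1.53. The part of other cell types in the result was not tested. The deletion itself was visible on the 129S5 allele: 21 genes of the interval, from Rere to Ski, were listed there, all lower in Df/+Bl6, with a median of 0.485% of the +129/+Bl6 mean.

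**Figure D4:**
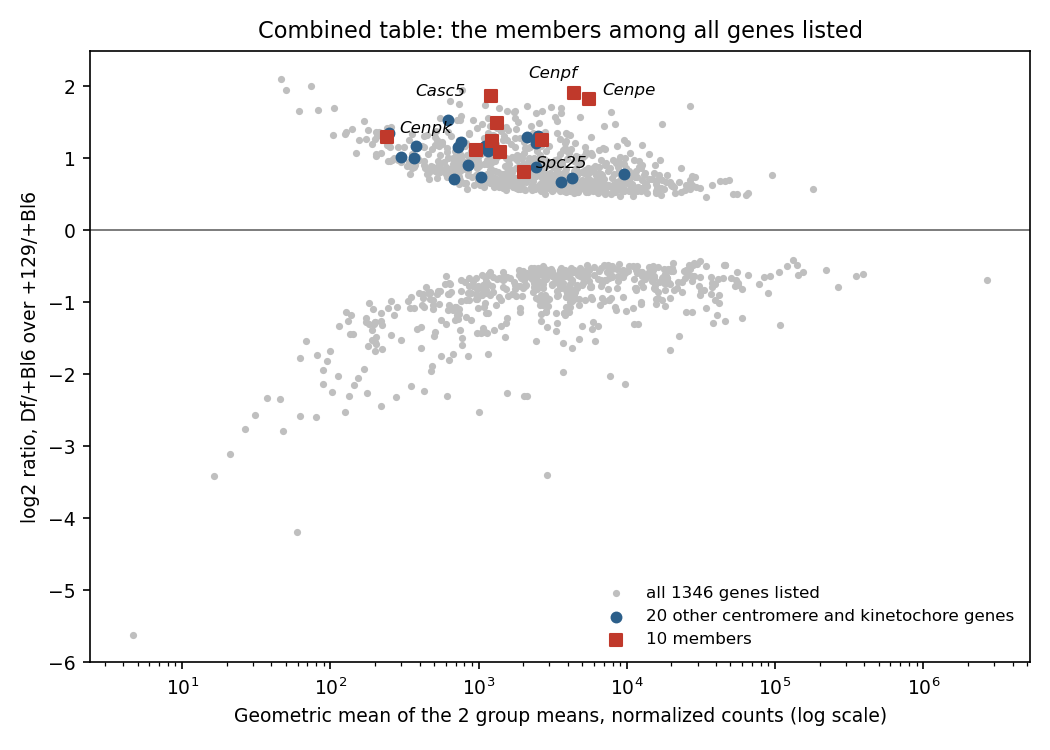
Each of the 1346 genes listed in the combined table, as log2 ratio of Df/+Bl6 over +129/+Bl6 against the geometric mean of both group means (log axis), with the 10 members in red and the 20 other listed centromere and kinetochore genes in blue. The members occupy the upper part of the cloud at middle levels, and Cenpf, Casc5 and Cenpe lie near its top; no gene near a ratio of 0 appears because such genes were not listed.

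The 5 listed genes nearest to the median member in level and ratio together were Sass6, Lin9, Ankrd26, Pbk and Kif14. Their log2 ratios were 1.20, 1.30, 1.26, 1.31 and 1.37, and their distances from the median, on both log2 scales at once, were 0.093 to 0.118. This likeness covers 2 group means only.

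The promoters were searched for letters known from cell cycle genes, on both strands, from 250 bases before to 50 after each RefSeq start. The motif TTTGAA was found in 5 of the 10 members, Cenpa, Cenpf, Spc25, Casc5 and Ndc80, which is 5 of their 12 promoter windows, against 17.9% of all 32851 windows. In all 5 it lay behind the start, as the printed sequences show for Cenpa at bases 17 to 22, Cenpf at 3 to 8 and Spc25 at 25 to 30, counted from 1 at the start. In Casc5 it lay at 32 to 37, and in Ndc80, on the opposite strand, at 30 to 35. The 50 bases from the start, a window picked after these positions were seen, held it in 2.25% of all promoters.

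CCAAT was found in 7 of the 10 members, or 9 of 12 windows, against 37.4% of all windows. In Cenpa, Cenpf and Spc25 it stood as a pair before the start, on the opposite strand in Cenpa, where it reads ATTGG. A window of Cenpk also held it before the start on both strands, at -65 to -61 and at -40 to -36. The E2F-like motif TTCCCGC was present in Cenph and Cenpk, and in 4.60% of all windows. Another E2F-like motif, TTGGCGC (2.45% of all windows), and TTCGAA (1.56%) were present in none of the members. Nuf2, with a log2 ratio of 1.26, held none of the 5 motifs as exact letters. Of the 3 members with the largest ratios, Cenpf and Casc5 held TTTGAA and Cenpe did not, and Spc25, with the smallest ratio, held it too. A match says only that these letters are present, and whether the motifs go with the ratios was not tested.

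**Figure D5:**
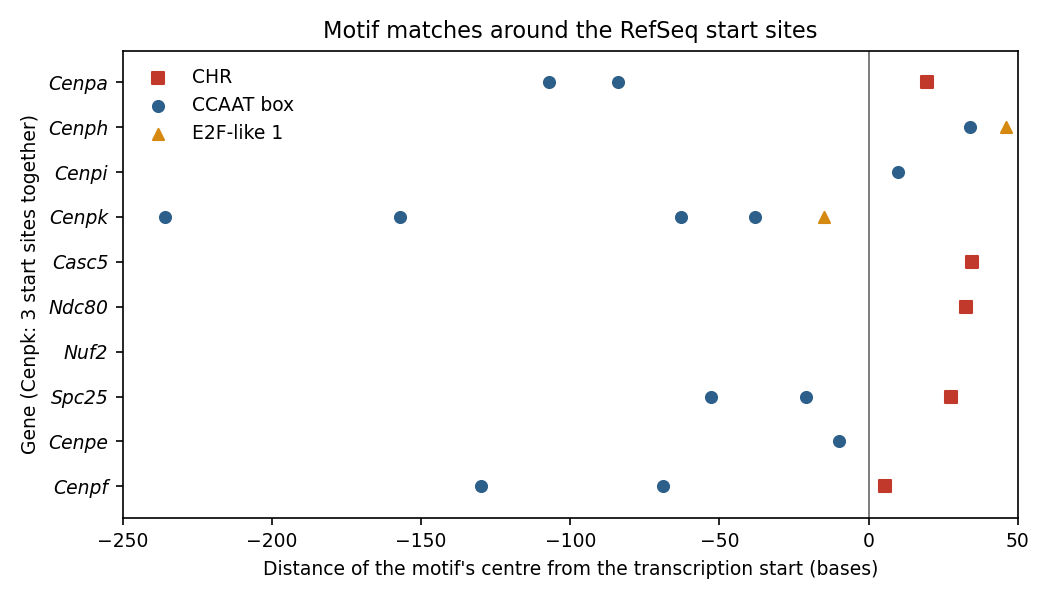
Distance of each motif match from the transcription start (bases, 0 at the start) in the 10 members: TTTGAA (CHR, red squares), CCAAT (blue circles) and TTCCCGC (E2F-like 1, orange triangles), with the 3 start sites of Cenpk drawn on 1 row. All red squares lie to the right of the start, and most blue circles lie to the left of it.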

How the data were processed

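Stranded paired-end polyA+ reads had been mapped by the authors using GSNAP, allowing no mismatch, once against C57BL/6J transcripts (GRCm38/mm10, Ensembl release 72, longest transcript of each gene) and once against the same transcripts carrying 129S5/SvEvBrd variants. A read pair counted towards a gene if it had a single best place and both mates lay on that gene. Genes with fewer than 10 reads per allele in both genotypes were dropped. The authors then tested Df/+Bl6 against +129/+Bl6 in DESeq. The deposited signal values used here are the authors' means of normalized counts per genotype, in 3 tables of genes past an FDR of 0.05. Each table was normalized separately. The tables also hold the authors' fold changes, p-values and adjusted p-values, which were not used. A further table has 9 columns of values without names for 7 samples. Its values were not used, and its gene identifiers served as the list of genes tested. The planned limma fit between lines was therefore not run, and the depth per line is unknown.

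The log2 ratio of the group means was computed without a pseudocount. Levels per kb used the longest protein-coding transcript of GENCODE M1 (NCBI37/mm9). Positions and promoters came from RefSeq (GRCm38.p6), matched by symbol for all 10 members. Named were the members, every listed gene of the 5 other centromere and kinetochore lists, listed genes of the marker lists and the 5 nearest genes. Unlisted genes of the centromere and kinetochore lists and of the quiescence and arrest list are named to account for them. Unlisted markers of cell type are only counted, apart from Epcam and Alb, which were not tested. Members and lists were chosen with earlier results of these data known. Some genes of these lists are not reported here. The scripts were tested on simulated data. Python 3.11.15, pandas 2.3.3, numpy 2.4.6, scipy 1.17.1 and matplotlib 3.10.9 were used.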

Additional observations from a re-analysis of the deposited data

How the results depend on the processing

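The ratios of the members kept their direction under every alternative tried. A pseudocount or a filter on the group mean cannot reverse a ratio, so only the shift by the median of listed genes could have done so. The median log2 ratio of the members was then taken relative to the median of all listed genes in the same table. It was 0.67 in the combined table (1.27 as given), 1.02 on the 129S5 copy (1.65) and 0.91 on the C57BL/6J copy (1.59). The shift lowered each of them because more listed genes rose than fell. These medians cover different genes: all 10 members when combined, 6 on the 129S5 copy and 5 on the C57BL/6J copy. Gene by gene, the median difference from the combined log2 ratio was 0.07 over those 6 and -0.05 over those 5. The higher allelic medians therefore do not show a larger rise on either copy. A pseudocount of 10 lowered the 129S5 median to 1.45 and the C57BL/6J median to 1.31, because some allelic means are low. Keeping genes with a group mean of at least 100 left 1.40 for the 129S5 allele. A pseudocount of 1 moved none of the medians by more than 0.1. Asking for a log2 ratio of at least 1 left 8 of the 16 cycling cell markers and 13 of the 20 other centromere and kinetochore genes. TTTGAA was found in 5 members also from 150 bases before to 50 after the start. CCAAT was found in 7 members there as well, but in 7 of the 12 windows instead of 9. Leaving out each MEF line and the limma fit were not run, because the columns of values could not be matched to lines. No paired analysis was possible because the labels do not tie lines of the 2 genotypes to each other and no values per line were used.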
